A study of Mus musculus with 6 samples.

Results

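The lysosome genes described here are 37 genes of soluble hydrolases, their cofactors, lysosomal membrane proteins and the transcription factor gene Tfeb, chosen by symbol from the 17933 genes of a deposited kidney RNA-seq table. All 37 were found, and all 37 reached the level at which genes were tested, a mean of at least 1 FPKM (fragments per kilobase of transcript, scaled to the fragments of the library) over the 6 samples. The stone group was 3 kidney samples from male C57BL/6 mice of wild-type genotype that received glyoxylic acid, an oxalate precursor, by daily injection into the peritoneum at 120 mg/kg for 12 days, a treatment used to form calcium oxalate crystals in the kidney. The control group was 3 kidney samples from male C57BL/6 mice of the same genotype that received saline in the same volume. Mice were 6 to 8 weeks old and weighed 24 to 26 g. The labels do not say that each sample came from a separate mouse, so p-values measure only how far these samples spread, and that spread may be technical. Whole kidney RNA was measured, and in such RNA a change in the number of cells of a type and a change in the RNA per cell cannot be told apart.

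Lysosomes are acidic organelles in which proteins, glycans and lipids delivered by endocytosis, phagocytosis and autophagy are broken down. Their soluble enzymes are carried from the Golgi by mannose 6-phosphate receptors, the proton pump V-ATPase acidifies the lumen, and heavily glycosylated membrane proteins such as LAMP1 and LAMP2 line the limiting membrane. In the kidney, proximal tubule cells are rich in lysosomes because they take up filtered protein, and macrophages are rich in lysosomes as phagocytes. TFEB is a transcription factor that binds E-box sequences of the CLEAR type in the promoters of many lysosomal genes.

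The 37 genes did not move together. Against controls, 16 were higher and 8 were lower in stone kidneys and 13 did not pass (limma on log2(FPKM + 1), Benjamini-Hochberg adjusted p below 0.05 over 12319 tested genes). Of all tested genes 43.5% were called higher and 13.9% lower, so on the deposited scale the 43.2% of lysosomal genes called higher were close to the background, and the 21.6% called lower stood beside 13.9%. After quantile normalization 45.9% of lysosomal genes were higher, beside 22.3% of all tested genes. The median log2 fold change was 0.24 for the lysosomal genes and 0.21 for all tested genes, with a range of -0.94 to 2.68 among the lysosomal genes. In 17 of the 37 genes the lowest stone value exceeded the highest control value, beside 6136 of all 12319 tested genes (49.8%). In 8 of the 37 the highest stone value was below the lowest control value, beside 2029 of all tested genes (16.5%). The groups overlapped in the other 12 of the 37 genes, beside 4154 of all 12319 tested genes, of which 66.3% had groups that did not overlap. A call with a log2 change of 1 or more was made for 5 of the 37 lysosomal genes, beside 902 of all 12319 tested genes (7.32%). One of -1 or less was made for 0 of the 37, beside 245 of all tested genes (1.99%). The summed FPKM of the 37 genes were 7026, 6934 and 6658 in stone samples 1 to 3, against 5742, 6013 and 5868 in control samples 1 to 3.

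**Figure D1:**
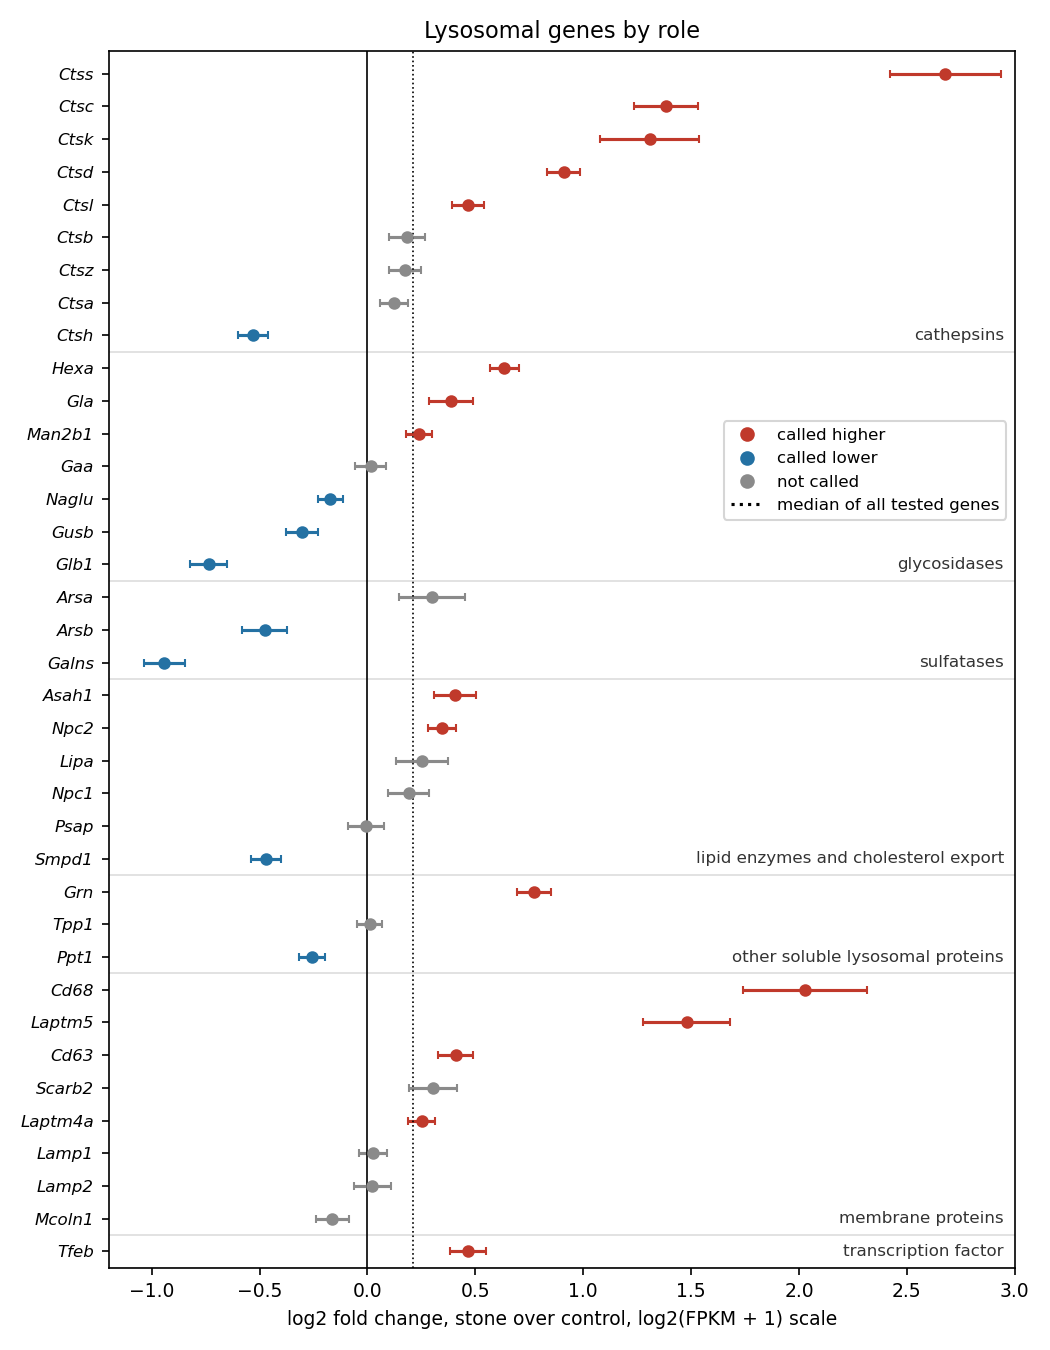
Log2 fold change of stone over control kidneys for the 37 lysosomal genes, grouped by role. Points are limma estimates on log2(FPKM + 1), bars are their standard errors, colours give the call at an adjusted p of 0.05, and the dotted line is the median of all tested genes at 0.21. Cathepsin genes span -0.53 to 2.68, and sulfatase genes -0.94 to 0.30.

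Among the 5 lysosomal genes with a mean over the 6 samples under 10 FPKM, 3 were higher and 0 lower, or 60% and 0%. All tested genes at that level were 47.1% higher and 6.57% lower. The median log2 fold change was 0.39 for these lysosomal genes, beside 0.30 for all tested genes at that level. Of the 19 genes between 10 and 100 FPKM 8 were higher and 7 lower, with a median of 0.01, beside 0.16 for all tested genes at that level. There 42.1% of the lysosomal genes were called higher and 36.8% lower, beside 42.6% and 16.4% of all tested genes. Of the 13 genes at 100 FPKM or more 5 were higher and 1 was lower, or 38.5% and 7.69%, beside 27.9% and 40.8% of all tested genes at that level. By absolute FPKM the order of the rises was not that of the fold changes, since Cd63 and Ctsd stood 377 and 312 FPKM above controls in stone kidneys, and Ctss, with the largest fold change, 46.0 FPKM above.

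How samples are scaled decided many of the smaller calls. The FPKM sums were 609705 to 613885 in stone samples and 711768 to 758514 in control samples, and Kap, an abundant proximal tubule transcript, made up 1.18% to 2.26% of the sum in stone samples and 19.3% to 23.2% in control samples. Median-of-ratios scaling shifted the median of all genes by -0.22, quantile normalization by -0.24 and equal FPKM sums by 0.24, so the direction of changes of this size depended on the scaling. Counts of lysosomal genes became 8 higher and 11 lower after median-of-ratios scaling (21.6% and 29.7%, beside 22.5% and 26.2% of all tested genes). They were 17 and 9 after quantile normalization (45.9% and 24.3%, beside 22.3% and 25.5%), and 28 and 4 with equal FPKM sums (75.7% and 10.8%, beside 68.5% and 6.47%). Of the 16 higher calls, 8 were made in all 17 alternative analyses, those of Ctss, Ctsc, Ctsk, Ctsd, Hexa, Grn, Cd68 and Laptm5. Of the 8 lower calls, 4 were made in all 17, those of Galns, Glb1, Ctsh and Smpd1. The other 8 higher calls, of Ctsl, Gla, Man2b1, Npc2, Asah1, Cd63, Laptm4a and Tfeb, were lost after median-of-ratios scaling. The other 4 lower calls, of Gusb, Naglu, Arsb and Ppt1, were lost with equal FPKM sums. The share of calls kept in all 17 was not computed for all tested genes, so these counts have no background beside them. Over all tested genes, higher calls numbered 5356 as deposited and 2776 after median-of-ratios scaling. Lower calls numbered 1711 as deposited and 797 with equal FPKM sums.

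**Figure D2:**
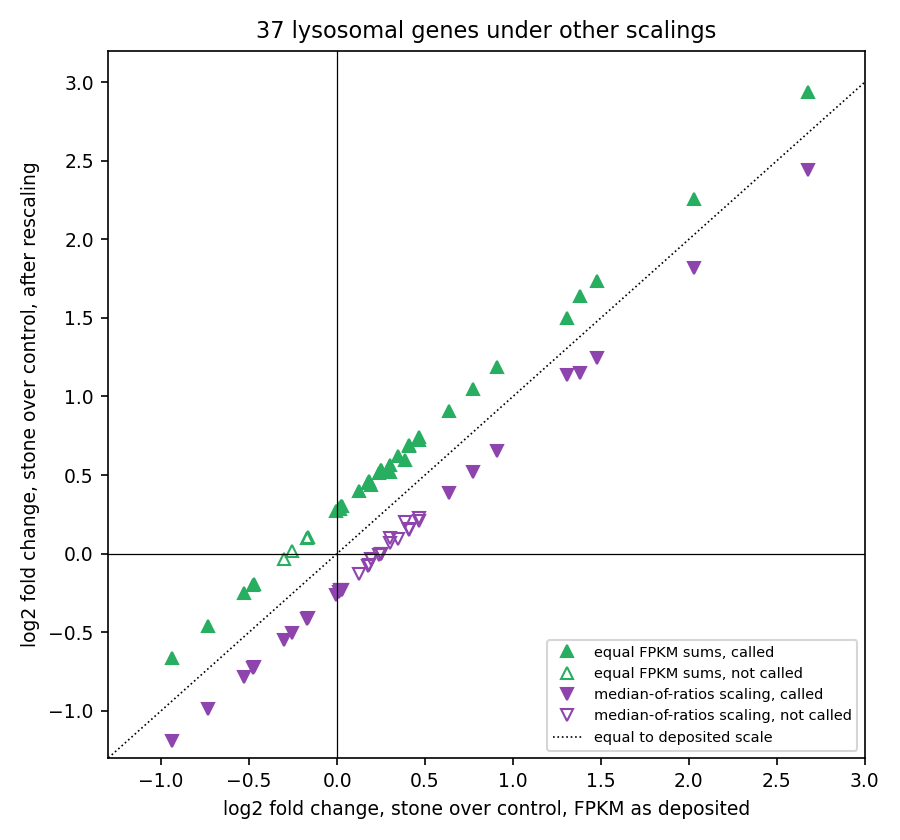
Log2 fold change of stone over control for the 37 lysosomal genes after 2 rescalings (vertical axis) against the deposited scale (horizontal axis). Filled symbols are called at an adjusted p of 0.05 in the rescaled analysis. Equal FPKM sums gave 28 higher and 4 lower genes and median-of-ratios scaling 8 higher and 11 lower, and genes near 0 on the deposited scale lay on opposite sides of 0 under these scalings.

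Tfeb, the regulator gene of the set, lies on chromosome 17 from 47737037 to 47792416 (GRCm38.p6, RefSeq). It measured 16.0, 15.6 and 14.9 FPKM in stone samples 1 to 3 and 9.73, 11.5 and 11.7 FPKM in control samples 1 to 3. The groups did not overlap. Its log2 fold change came to 0.46 (SE 0.0837, limma adjusted p = 0.00318), but was 0.23 and not called after median-of-ratios scaling and 0.22 and not called after quantile normalization.

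Many lysosomal genes are known targets of TFEB, so their promoters were searched for the letters it binds. RefSeq promoters on GRCm38.p6, from 250 bases before to 50 bases after a gene's start, were matched by symbol for 32 of the 37 genes. The E-box CACGTG, which reads the same on both strands, was found in 10 of these 32 genes (31.2%), against 8.09% of 27025 genes with a promoter. Its extension TCACGTGA was found in Ctsa, Ctsd, Gla and Mcoln1 (12.5%, against 1.12%), and the full CLEAR palindrome, which adds a G before and a C after these letters, in 0 of 32 (0.37% of all genes). Each longer form contains the shorter. Of the 10 genes with an E-box, 3 were called higher, 2 lower and 5 not at all. Of all 32 genes with a promoter, 15 were called higher and 6 lower. So that genes that rose, fell and were not called can be compared, the site nearest before the listed start of each gene is given, with the E-box in capitals within its flanking bases, read 5′ to 3′ along the gene's strand. The first 3 genes were called higher, the next 2 lower and the last 5 not called, and for Ctsa the position is from the second of its listed starts. For Ctsl the only listed start lies inside the gene's outermost bounds, chr13:64361890-64370772, and so does the printed site.
Ctsd (chr7:142387910-142387935, minus strand, E-box from position -98): gcccgcgtctCACGTGacccgttgag
Ctsl (chr13:64370741-64370766, minus strand, from -236): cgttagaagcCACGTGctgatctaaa
Gla (chrX:134601184-134601209, minus strand, from -194): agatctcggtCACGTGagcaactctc
Glb1 (chr9:114401020-114401045, plus strand, from -48): gcttctgagtCACGTGgcctacagag
Naglu (chr11:101070011-101070036, plus strand, from -73): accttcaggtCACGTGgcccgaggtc
Lamp1 (chr8:13159136-13159161, plus strand, from -15): gtgaccacatCACGTGcggaacggag
Mcoln1 (chr8:3500464-3500489, plus strand, from -45): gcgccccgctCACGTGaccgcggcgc
Ctsa (chr2:164833751-164833776, plus strand, from -12): agcaaactgtCACGTGatgcagatgc
Gaa (chr11:119267813-119267838, plus strand, from -140): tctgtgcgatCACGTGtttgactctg
Arsa (chr15:89477425-89477450, minus strand, from -16): aactcagtgtCACGTGttgtctgctc
Lamp1 held 4 such sites, more than any other gene of the set, and its RNA did not pass the test. A match of letters is a description of the sequence and shows neither binding nor a cause.

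Cathepsins are lysosomal proteases, and their genes showed the widest spread. Of 9 tested, 5 were higher, 1 was lower and 3 did not pass. The shares higher and lower were 55.6% and 11.1%, beside 43.5% and 13.9% of all tested genes. Their summed FPKM were 2181, 2155 and 2082 in stone samples 1 to 3 and 1543, 1716 and 1532 in control samples 1 to 3.

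Ctss encodes cathepsin S, a cysteine protease of antigen-presenting cells that trims the invariant chain, and lies on chromosome 3 from 95526786 to 95556405. It had 34.8, 74.0 and 50.6 FPKM in stone samples 1 to 3 and 7.18, 5.78 and 8.52 FPKM in control samples 1 to 3. Its mean was 7.42 times that of controls, a log2 change of 2.68 (SE 0.258, limma adjusted p = 0.000239), which placed it at percentile 99.6 of all tested genes. The lowest stone value, 34.8 FPKM, lay far above the highest control value, 8.52 FPKM, while the stone samples themselves differed widely.

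Ctsc, the gene of cathepsin C (dipeptidyl peptidase I), which activates granule serine proteases of leukocytes, had 16.1, 20.1 and 18.1 FPKM in stone samples and 4.86, 7.57 and 6.73 FPKM in control samples. This was a log2 fold change of 1.38 (SE 0.150, limma adjusted p = 0.000372), and the groups did not overlap. Ctsk, which encodes cathepsin K, a collagen-degrading protease best known from osteoclasts, had 3.52, 5.88 and 4.45 FPKM in stone samples and 1.18, 0.73 and 1.96 FPKM in control samples. On the log2 scale it rose by 1.31 (SE 0.228, limma adjusted p = 0.00276). At this low level its coefficient of variation in controls, 48.2%, was the largest of the 37 genes. Of 6 osteoclast markers, Calcr, Oscar, Dcstamp and Ocstamp were at or below 0.56 FPKM in every sample and not tested. Calcr had 0.56, 0.49 and 0.43 FPKM in stone samples and 0.12, 0.05 and 0.14 FPKM in control samples. Atp6v0d2 had 25.7, 26.11 and 23.06 FPKM in stone samples and 20.25, 20.76 and 19.77 FPKM in control samples. It was called higher (limma, adjusted p = 0.00965). After median-of-ratios scaling or quantile normalization no marker of this list was. Nfatc1 averaged 4.21 and 4.29 FPKM in stone and control kidneys, not called.

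Ctsd encodes cathepsin D, the main aspartic protease of lysosomes, and lies on chromosome 7 from 142375910 to 142387827. Its levels were 691, 650 and 663 FPKM in stone samples 1 to 3, against 345, 388 and 334 FPKM in control samples 1 to 3. It rose 1.88-fold with little spread in either group (log2 fold change 0.91, SE 0.0768, limma adjusted p = 0.00014). Among the 12 genes with control means of at least 100 FPKM this was the largest fold change. Its exons share 808 bases with the gene model Gm49369 on the same strand, so its reads could be divided between them, and Gm49369 was not analysed here.

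Ctsl, the gene of cathepsin L, a cysteine endopeptidase abundant in proximal tubule, had 530.4, 491 and 466 FPKM in stone samples and 339, 375 and 361 FPKM in control samples. The groups did not overlap, and the log2 fold change of 0.47 (SE 0.0751, limma adjusted p = 0.00196) was 0.21 and not called after median-of-ratios scaling. Ctsb, encoding cathepsin B, whose exons share 774 bases with Fdft1 on the opposite strand, averaged 481 ± 11.8 FPKM in stone kidneys and 425 ± 42.8 FPKM in control kidneys (SD, n = 3 each), with overlapping groups (limma, adjusted p = 0.0986). Ctsz, encoding cathepsin Z, a carboxypeptidase, averaged 129 ± 4.77 and 114 ± 9.87 FPKM in stone and control kidneys (limma, adjusted p = 0.0838). Ctsa, encoding cathepsin A, a carboxypeptidase that also protects beta-galactosidase and neuraminidase, averaged 171 ± 11.3 and 156 ± 4.44 FPKM in stone and control kidneys (limma, adjusted p = 0.151). These 3 genes were called higher after quantile normalization, with equal FPKM sums and with array weights, and Ctsb and Ctsz also without control sample 2.

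Ctsh was the cathepsin gene that fell. It encodes cathepsin H, a cysteine aminopeptidase, and lies on chromosome 9 from 90054267 to 90076095. Levels were 111, 119.9 and 126 FPKM in stone samples 1 to 3 and 171, 180.5 and 165 FPKM in control samples 1 to 3, a log2 fold change of -0.53 (SE 0.0697, limma adjusted p = 0.000831). The highest stone value lay below the lowest control value.

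Cystatins and stefins are natural inhibitors of cysteine cathepsins. Of 8 listed genes 2 reached the level for testing, too few to speak for the family. Both were called higher, beside 43.5% of all tested genes. Cstb, encoding the intracellular inhibitor stefin B, averaged 363 ± 4.80 FPKM in stone kidneys and 199.7 ± 14.3 FPKM in control kidneys (log2 fold change 0.86, limma adjusted p = 0.000114). Cst3, encoding the secreted cystatin C, averaged 387 ± 23.9 FPKM in stone kidneys and 299.5 ± 14.5 FPKM in control kidneys, a log2 fold change of 0.37 (limma, adjusted p = 0.00464) that was 0.11 and not called after median-of-ratios scaling.

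**Figure D3:**
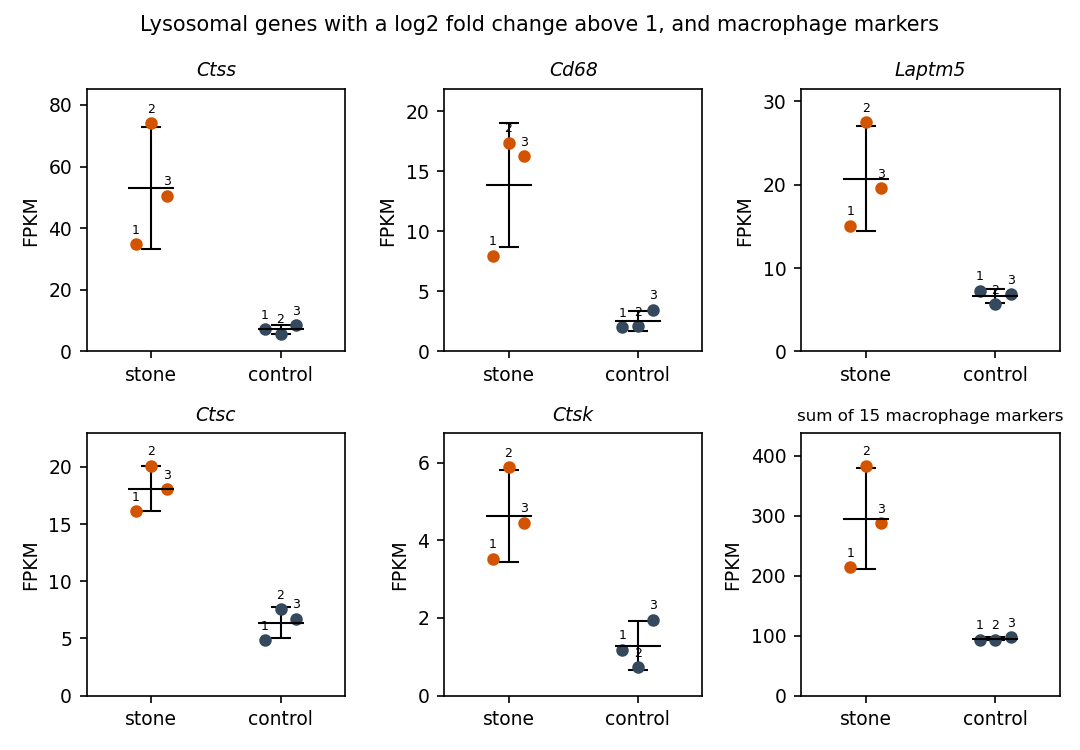
FPKM in each stone and control sample for the 5 lysosomal genes that rose by 1 or more on the log2 scale, and the sum of 15 macrophage markers. Points are samples with their replicate number, the wide bar is the group mean and the whiskers are the SD (n = 3). In all 6 panels stone sample 1 is the lowest and stone sample 2 the highest of the stone samples, and no stone value overlaps the controls.

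Most transcripts that mark myeloid cells were higher too. Of 15 macrophage markers, none of which is a lysosomal gene of this set, 13 were higher, 1 was lower (Mertk) and 1 did not pass (Csf1r). The share higher was 86.7%, beside 43.5% of all tested genes. In no sample was any of the markers at 0. Their summed FPKM were 215, 384 and 288 in stone samples 1 to 3 and 93.5, 93.7 and 97.5 in control samples 1 to 3. C1qa and C1qb made up 23.4% and 20.9% of the sum in stone samples and 14.5% and 15.7% in control samples, where Csf1r and Mertk were the largest parts, with 21.3% and 16.3%, against 6.87% and 3.94% in stone samples. Ctss, Cd68, Laptm5, Ctsc and Ctsk were, like this sum, lowest in stone sample 1 and highest in stone sample 2. This order was shown by 13 of the 15 macrophage markers, 13 of the 37 lysosomal genes and 20.6% of all tested genes. It was not particular to myeloid markers, since Kap and the fibroblast gene Col1a1 showed it as well. Markers of fibroblasts moved too, with 7 of 7 higher and sums of 110, 195 and 177 FPKM in stone samples and 35.7, 30.0 and 44.9 FPKM in control samples. The part of these cells in the rises was not tested.

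Set against the macrophage marker sum of the same sample, a ratio that rescaling a sample by a factor cannot alter, Ctss was 0.162, 0.193 and 0.175 in stone samples 1 to 3 and 0.0768, 0.0617 and 0.0874 in control samples 1 to 3. The mean ratio in stone kidneys was 2.35 times that in control kidneys. This size depended on the makeup of the sum, since against C1qa, C1qb and C1qc alone, a denominator added after the values were seen, Ctss was 0.268, 0.319 and 0.298 in stone samples and 0.192, 0.146 and 0.228 in control samples, or 1.56 times. The groups did not overlap with either denominator. For the other 4 genes the picture changed with the denominator. The Cd68 ratio was 1.74 times that of controls against the whole sum. Its groups did not overlap but nearly met, at 0.0371 in stone sample 1 and 0.0355 in control sample 3. Against the C1q genes it was 1.16 times, with overlap. Laptm5 and Ctsc had ratios of 1.00 and 0.943 times those of controls against the whole sum, with overlap, and of 0.67 and 0.633 times against the C1q genes, with all stone values below all control values. The Ctsk ratio overlapped between groups with both, at 1.16 and 0.768 times. With 3 against 3 samples an exact two-sided permutation test of such a ratio cannot go below p = 0.1.

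The same promoters were searched on both strands for GAGGAAGT, core letters bound by the myeloid factor PU.1. It was found in 4 of the 32 lysosomal genes with a promoter (12.5%, against 3.69% of all genes), namely Ctss and Ctsc of these 5 genes, and also Gla, called higher, and Gusb, called lower. The motif was chosen after the values were seen, and a match of its letters shows neither binding nor a cause. The sites of Ctss and Ctsc, but not those of Gla and Gusb, are given. The motif is in capitals, as its reverse complement along the gene's strand.
Ctss (chr3:95526774-95526801, plus strand, from position -2): atgaaagttcACTTCCTCattgtggatg
Ctsc (chr7:88277924-88277951, plus strand, from -151): tcactaactaACTTCCTCaggccacctc

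Glycosidases cleave sugars from glycoproteins, glycolipids and glycosaminoglycans. Of the 7 genes 3 were higher, 3 lower and 1 not called. Each direction held 42.9% of them, beside 43.5% higher and 13.9% lower among all tested genes. Hexa encodes the alpha subunit of beta-hexosaminidase and lies on chromosome 9 from 59539540 to 59565109. It had 40.0, 37.7 and 39.9 FPKM in stone samples 1 to 3 and 23.4, 26.3 and 25.03 FPKM in control samples 1 to 3. All stone values stood above the controls, a log2 fold change of 0.63 (SE 0.0654, limma adjusted p = 0.000309). Hexa shares 255 exon bases with Tmem202 on the opposite strand.

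Glb1, encoding lysosomal beta-galactosidase, the enzyme behind senescence-associated staining, lies on chromosome 9 from 114401078 to 114474379. It had 54.1, 66.5 and 54.9 FPKM in stone samples and 98.4, 100.3 and 94.4 FPKM in control samples. On the log2 scale it fell by 0.74 (SE 0.0875, limma adjusted p = 0.000547), and every stone value was below every control value. Its exons share 165 bases with Tmppe on the same strand. Beta-galactosidase works in a complex with cathepsin A and the neuraminidase NEU1. Neu1, picked out after its values were seen, averaged 121 ± 7.17 and 123 ± 2.36 FPKM in stone and control kidneys (limma, adjusted p = 0.731), and was called lower after median-of-ratios scaling and higher with equal FPKM sums. The ratio of Glb1 to Neu1 was 0.429, 0.538 and 0.487 in stone samples and 0.816, 0.817 and 0.753 in control samples. The ratio of Ctsa to Neu1 was 1.45, 1.37 and 1.43 in stone samples and 1.27, 1.31 and 1.24 in control samples. Relative to Neu1, Glb1 was thus lower in each stone sample, while Ctsa stood slightly above its control ratios.

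The other glycosidase genes changed less. Gusb, encoding beta-glucuronidase, averaged 22.0 ± 1.503 FPKM in stone kidneys and 27.4 ± 1.39 FPKM in control kidneys, a log2 fold change of -0.30 (limma, adjusted p = 0.0103) that was -0.03 and not called with equal FPKM sums. Naglu, encoding the N-acetylglucosaminidase of heparan sulfate breakdown, averaged 21.1 ± 0.633 and 23.9 ± 0.526 FPKM in stone and control kidneys. Its call (log2 fold change -0.17, limma adjusted p = 0.035) was lost with equal FPKM sums, where the value was 0.10, without a variance trend, and without any single sample other than control sample 2. Gla, encoding alpha-galactosidase A, was low at 3.46 ± 0.235 and 2.41 ± 0.289 FPKM in stone and control kidneys. Its log2 fold change of 0.39 (limma, adjusted p = 0.0145) was not called after median-of-ratios scaling, at 0.20, after quantile normalization, at 0.01, without control sample 1, at 0.34, or without stone sample 2, at 0.34. Man2b1, encoding lysosomal alpha-mannosidase, averaged 59.8 ± 1.69 and 50.5 ± 2.57 FPKM in stone and control kidneys (log2 fold change 0.24, limma adjusted p = 0.0128). That call was lost after median-of-ratios scaling, at -0.01, without control sample 1 and without stone sample 2. Gaa, encoding the acid alpha-glucosidase of glycogen breakdown, averaged 33.4 ± 2.49 and 33.0 ± 1.19 FPKM in stone and control kidneys (limma, adjusted p = 0.875), and was called higher with equal FPKM sums.

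Sulfatases remove sulfate groups from glycosaminoglycans and sulfolipids. Galns, encoding the galactosamine-6-sulfatase of keratan sulfate breakdown, lies on chromosome 8 from 122578237 to 122611701 and showed the largest fall of the set. Levels were 38.9, 48.8 and 42.1 FPKM in stone samples 1 to 3, against 89.6, 79.6 and 81.9 FPKM in control samples 1 to 3. The mean was 0.517 times that of controls (log2 fold change -0.94, SE 0.0937, limma adjusted p = 0.00027), and percentile 2.37 of all tested genes. Arsb, encoding arylsulfatase B, which acts on dermatan and chondroitin sulfate, had 73.9, 60.7 and 58.7 FPKM in stone samples and 88.3, 82.6 and 98.6 FPKM in control samples. Its log2 fold change of -0.48 (limma, adjusted p = 0.00742) was -0.20 and not called with equal FPKM sums. Arsa, encoding arylsulfatase A, which acts on sulfatide, averaged 4.27 ± 0.916 and 3.26 ± 0.516 FPKM in stone and control kidneys, with overlapping groups (limma, adjusted p = 0.128). It was called higher with equal FPKM sums, with array weights and without stone sample 1. Sumf1, the enzyme gene that activates all sulfatases, averaged 20.1 ± 0.601 FPKM in stone kidneys and 25.6 ± 0.115 FPKM in control kidneys. Its log2 fold change of -0.33 (limma, adjusted p = 0.00224) was -0.06 and not called with equal FPKM sums.

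**Figure D4:**
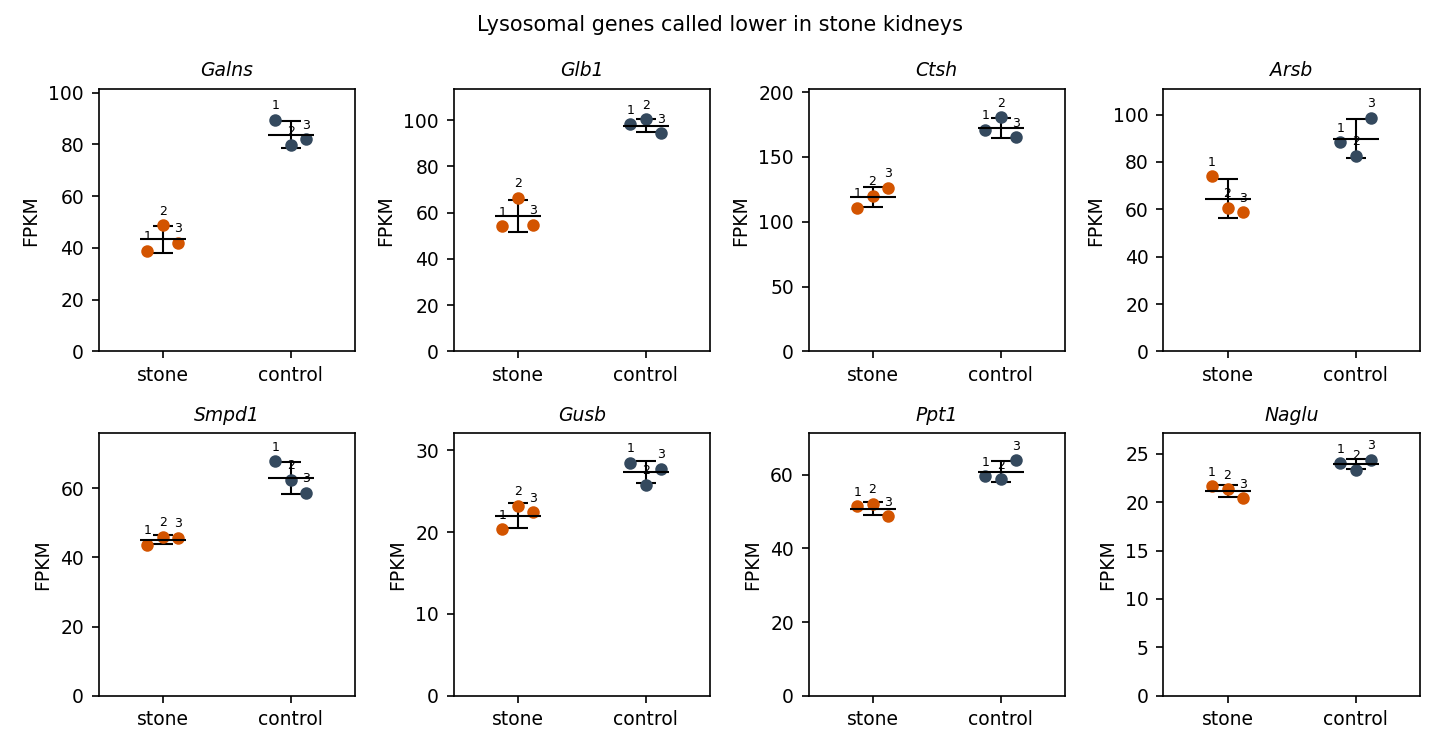
FPKM in each stone and control sample for the 8 lysosomal genes called lower in stone kidneys on the deposited scale. Points are samples with their replicate number, the wide bar is the group mean and the whiskers are the SD (n = 3). In each panel all stone values lie below all control values. With equal FPKM sums Gusb, Naglu, Arsb and Ppt1 were not called, and Naglu and Ppt1 changed sign.

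Among genes of lipid handling, 2 were higher, 1 was lower and 3 did not pass. The shares higher and lower were 33.3% and 16.7%, beside 43.5% and 13.9% of all tested genes. Smpd1 encodes acid sphingomyelinase, which makes ceramide from sphingomyelin, and Asah1 encodes acid ceramidase, which breaks ceramide down. Smpd1 had 43.7, 46.0 and 45.7 FPKM in stone samples and 67.8, 62.4 and 58.7 FPKM in control samples. On the log2 scale it fell by 0.47 (SE 0.0683, limma adjusted p = 0.00128), and the groups did not overlap. Asah1 had 65.2, 76.3 and 85.0 FPKM in stone samples and 55.4, 55.1 and 58.9 FPKM in control samples (log2 fold change 0.41, SE 0.0978, limma adjusted p = 0.0105). After median-of-ratios scaling its log2 fold change was 0.15 and was not called.

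NPC2 and NPC1 pass cholesterol from the lumen to the membrane and out of the lysosome, and acid lipase, encoded by Lipa, frees it from esters. Npc2 averaged 41.8 ± 1.72 FPKM in stone kidneys and 32.7 ± 1.97 FPKM in control kidneys, a log2 fold change of 0.35 (limma, adjusted p = 0.00415) that was 0.10 and not called after median-of-ratios scaling. Npc1 had 7.25, 9.07 and 7.85 FPKM in stone samples and 7.20, 7.16 and 6.38 FPKM in control samples. Its groups did not overlap, but the lowest stone and the highest control value nearly met, and it did not pass (limma, adjusted p = 0.125). Lipa averaged 146 ± 24.2 and 121 ± 9.89 FPKM in stone and control kidneys (limma, adjusted p = 0.112). Npc1 and Lipa were called higher with equal FPKM sums and with array weights. Psap, which encodes the precursor of the saposin cofactors, was among the most abundant genes of the set at 745 ± 51.1 and 749 ± 50.5 FPKM in stone and control kidneys. Its log2 fold change of -0.01 (limma, adjusted p = 0.938) was called lower, at -0.26, after median-of-ratios scaling and higher, at 0.27, with equal FPKM sums.

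Grn encodes progranulin, a secreted and lysosomal protein that travels with prosaposin, and lies on chromosome 11 from 102430507 to 102436809. Levels were 138, 164.5 and 161 FPKM in stone samples 1 to 3 and 90.3, 91.0 and 88.3 FPKM in control samples 1 to 3. On the log2 scale it rose by 0.77 (SE 0.0775, limma adjusted p = 0.000277), without overlap. The ratio of Grn to Psap was 0.196, 0.205 and 0.223 in stone samples and 0.127, 0.125 and 0.110 in control samples, a 1.73-fold difference. Tpp1, encoding a tripeptidyl peptidase, averaged 93.5 ± 3.47 and 92.8 ± 2.81 FPKM in stone and control kidneys (limma, adjusted p = 0.887), and was called lower after median-of-ratios scaling and higher with equal FPKM sums. Ppt1, encoding a thioesterase that removes palmitate from proteins, averaged 50.8 ± 1.80 and 60.8 ± 2.83 FPKM in stone and control kidneys. Its log2 fold change of -0.26 (limma, adjusted p = 0.00993) was 0.02 and not called with equal FPKM sums.

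Among the membrane proteins, Cd68 and Laptm5 had the largest fold changes, Cd63 the largest rise in FPKM, and Lamp1 and Lamp2 were not called. Of 8 tested, 4 were higher, 0 lower and 4 not called. The shares higher and lower were 50% and 0%, beside 43.5% and 13.9% of all tested genes. Lamp1, encoding the membrane glycoprotein used as the standard lysosome marker, had 680.1, 675 and 647 FPKM in stone samples 1 to 3 and 649, 684 and 634 FPKM in control samples 1 to 3. Lamp2, its paralog with a role in autophagy, averaged 559.6 ± 50.3 and 550.1 ± 31.4 FPKM in stone and control kidneys. Their groups overlapped, with log2 fold changes of 0.03 and 0.02 (limma, adjusted p = 0.759 and 0.843). They were called higher, both at 0.30, with equal FPKM sums. Relative to this marker Ctsd was higher, with a ratio of Ctsd to Lamp1 of 1.02, 0.963 and 1.02 in stone samples and 0.532, 0.567 and 0.526 in control samples, without overlap.

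Cd68 encodes a macrophage glycoprotein of late endosomes and lysosomes, and lies on chromosome 11 from 69664213 to 69666170. It had 7.97, 17.4 and 16.3 FPKM in stone samples 1 to 3 and 2.02, 2.12 and 3.46 FPKM in control samples 1 to 3. Stone sample 1 lay well below the other stone samples and still above all controls. This was a log2 fold change of 2.03 (SE 0.288, limma adjusted p = 0.00116). Laptm5, a lysosomal membrane protein gene of blood cells, had 15.1, 27.5 and 19.6 FPKM in stone samples and 7.29, 5.69 and 6.88 FPKM in control samples (log2 fold change 1.48, SE 0.200, limma adjusted p = 0.000933).

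Cd63, a tetraspanin gene of late endosomes and exosomes, was the most abundant of the 37 and ranked 41 among all genes of the table by mean FPKM. It had 1618, 1528 and 1421 FPKM in stone samples and 1149, 1182 and 1105 FPKM in control samples. The groups stood apart (log2 fold change 0.41, SE 0.0802, limma adjusted p = 0.00447), but the value was 0.15 and not called after median-of-ratios scaling. Laptm4a, the widely expressed relative of Laptm5, averaged 181 ± 8.07 and 152 ± 6.16 FPKM in stone and control kidneys (log2 fold change 0.25, limma adjusted p = 0.0119), a call lost after median-of-ratios scaling, at -0.0034, and without control sample 1. Scarb2, encoding the receptor LIMP-2 that carries glucocerebrosidase to lysosomes, had 11.7, 14.3 and 15.7 FPKM in stone samples and 10.6, 10.6 and 12.0 FPKM in control samples. Groups overlapped and it just missed the threshold (log2 fold change 0.30, limma adjusted p = 0.0503), and it was called higher without stone sample 1, without control sample 3 and in 5 other alternatives. Mcoln1, encoding a calcium channel of the lysosomal membrane, averaged 29.8 ± 1.85 and 33.5 ± 2.25 FPKM in stone and control kidneys (limma, adjusted p = 0.101), and was called lower after median-of-ratios scaling and quantile normalization.

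Markers of the proximal tubule, the other cell type rich in lysosomes, were mostly lower. Of 14, 9 were lower, 1 was higher (Slc5a12) and 4 did not pass, and 0 were at 0 in any sample. Those 4 were Cubn, Slc5a2, Slc13a3 and Aqp1, and all but Cubn had a higher mean in stone kidneys. The share lower was 64.3%, beside 13.9% of all tested genes. Without Kap the summed FPKM of the markers were 4642 to 5626 in stone samples and 8420 to 9234 in control samples. Slc34a1 and Miox were the largest parts of this sum. They averaged 1661 and 1254 FPKM in stone kidneys and 2617 and 2267 FPKM in control kidneys. The lower markers stand beside the falls of Galns, Glb1, Ctsh and Smpd1, and the part of proximal tubule cells in these falls was not tested.

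Related genes outside the 37 also moved in both directions. Of 24 other lysosomal enzyme genes 7 were higher and 4 lower (29.2% and 16.7%), with a median log2 fold change of 0.03. Among all tested genes 43.5% were called higher and 13.9% lower, with a median of 0.21. Lgmn, encoding legumain, the asparaginyl endopeptidase that processes cathepsins, had 893, 704 and 688 FPKM in stone samples and 328, 400.1 and 369.5 FPKM in control samples (log2 fold change 1.05, limma adjusted p = 0.000508). Pla2g15, a lysosomal phospholipase gene, rose by 0.94 on the log2 scale. Dpp7, a dipeptidyl peptidase gene, fell by 0.91. Acp5, the gene of tartrate-resistant acid phosphatase of osteoclasts and macrophages, singled out after its values were seen, averaged 32.8 ± 1.39 FPKM in stone kidneys and 45.2 ± 4.64 FPKM in control kidneys, a log2 fold change of -0.45 (limma, adjusted p = 0.00399) that was -0.17 and not called with equal FPKM sums. Of 18 other membrane transporter and channel genes 7 were higher and 2 lower (38.9% and 11.1%), with a median of 0.18. Sidt2, Ctns, the cystine exporter gene, and Cln3 rose by 0.43, 0.54 and 0.61 on the log2 scale. Tmem192 and the potassium channel gene Tmem175 had log2 fold changes of -0.33 and -0.23, and with equal FPKM sums -0.06 and 0.04, not called. The Tmem175 call was also lost with array weights and without any single sample other than stone sample 2.

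Of 16 widely expressed V-ATPase genes 1 was higher and 3 were lower, with a median of -0.05. The shares higher and lower were 6.25% and 18.75%, beside 43.5% and 13.9% of all tested genes. Atp6v1a, encoding the catalytic subunit, had 123, 119 and 106 FPKM in stone samples and 159, 163 and 165 FPKM in control samples, with a log2 fold change of -0.48 (limma, adjusted p = 0.0012). The membrane-sector genes Atp6v0a2 and Atp6v0a1 had log2 fold changes of -0.28 and 0.26. The first was -0.01 and not called with equal FPKM sums, and the second 0.01 after median-of-ratios scaling and 0.08 after quantile normalization, not called. In enzyme sorting 2 of 10 genes were higher and 2 lower (20% each). M6pr, the cation-dependent mannose 6-phosphate receptor gene, averaged 91.4 ± 3.65 FPKM in stone kidneys and 119 ± 1.35 FPKM in control kidneys (log2 fold change -0.37, limma adjusted p = 0.00142), and was -0.10 and not called with equal FPKM sums. Gga3, a sorting adaptor gene, and Gnptab, the gene of the enzyme that starts the mannose 6-phosphate tag, rose by 0.69 and 0.44 on the log2 scale, and Gnptab was 0.15 and not called after quantile normalization. The sorting receptor gene Sort1, singled out after its values were seen, had 10.6, 12.3 and 25.03 FPKM in stone samples and 10.2, 9.61 and 11.4 FPKM in control samples, with 1 high stone sample and no call (limma, adjusted p = 0.172). It was called higher with equal FPKM sums.

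In the list of the TFEB family and of nutrient sensing at the lysosome, 6 of 18 tested genes were higher and 4 lower. The shares were 33.3% and 22.2%, beside 43.5% and 13.9% of all tested genes. Tfec and Tfe3, relatives of Tfeb, averaged 13.0 ± 0.570 and 18.6 ± 1.07 FPKM in stone kidneys and 7.53 ± 0.125 and 13.4 ± 0.858 FPKM in control kidneys. Their log2 fold changes were 0.71 and 0.45 (limma, adjusted p = 0.000192 and 0.00227). Mtor, encoding the kinase that holds TFEB in the cytoplasm when nutrients are ample, lies on chromosome 4 from 148448582 to 148557685. It had 22.7, 24.4 and 22.0 FPKM in stone samples and 48.0, 42.8 and 49.0 FPKM in control samples. On the log2 scale it fell by 0.98 (SE 0.0739, limma adjusted p = 8.91e-05), more than any lysosomal gene of the set. Rragc, a Rag GTPase gene, had a log2 fold change of 0.36, and 0.11 without a call after median-of-ratios scaling, and Fnip2, a folliculin partner gene, -0.47, and -0.20 without a call with equal FPKM sums. Of 20 autophagy genes 5 were higher and 4 lower (25% and 20%), with a median of -0.02. Gabarapl1, an autophagosome membrane protein gene, averaged 322 ± 23.5 FPKM in stone kidneys and 449 ± 18.4 FPKM in control kidneys with a log2 fold change of -0.48 (limma, adjusted p = 0.0017). Wipi2, a phosphoinositide-binding autophagy gene, had a log2 fold change of -0.42, and -0.15 without a call with equal FPKM sums. Vps11, Atg16l1 and Vps18, of tethering and conjugation complexes, had 0.36, 0.31 and 0.24, and none of these was called after median-of-ratios scaling, at 0.12, 0.08 and 0.01, or quantile normalization. The Vps18 call was also lost without control sample 1, stone sample 1 or stone sample 3.

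**Figure D5:**
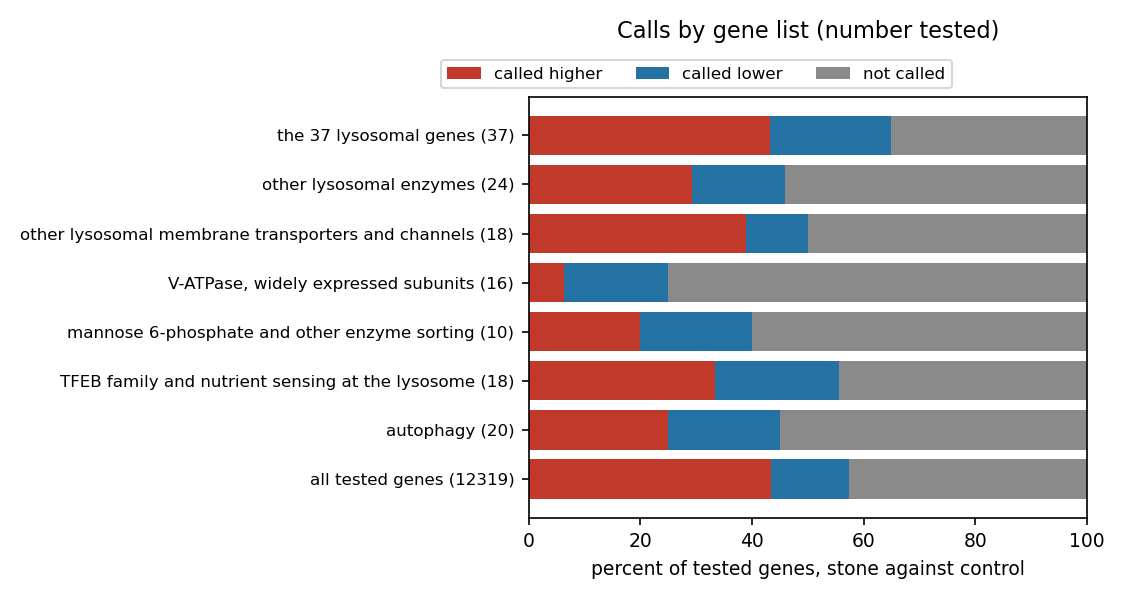
Percent of tested genes called higher, lower or not called in stone against control kidneys, for the 37 lysosomal genes, related gene lists and all tested genes, with the number tested in brackets. The V-ATPase genes have the smallest share of calls at 25% and the 37 lysosomal genes 64.9%, beside 57.4% of all tested genes. The split between higher and lower depends on scaling, and median-of-ratios scaling gives 8 higher and 11 lower among the 37.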

How the data were processed

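RNA was measured in 6 kidney samples, 3 of the stone and 3 of the control group. Per the labels' protocols, libraries were made from total RNA with dUTP in the second strand. HISAT2 2.0.4 and GRCm38.p6 are named in the submitters' processing notes. The quantifier, the annotation, whether strand was used in counting and the total behind the FPKM scale were not given in the sources used here. What the authors deposited were FPKM values, held in 1 table with 1 column per sample and 0 columns of other samples. FPKM carry no counts, so sequencing depth is unknown, no counting interval is given and no count model was used.

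The 12319 genes that averaged 1 FPKM or more (5614 others were not tested) were compared on log2(FPKM + 1) by limma 3.58.1 in R 4.3.3 (lmFit, eBayes with a trend), two-sided, adjusted by Benjamini-Hochberg over all of them, at 0.05. This scale understates changes of low genes. The script was tested on simulated data. Ratios, sums and promoter letters were computed in Python 3.11.15, with promoters and gene positions from RefSeq (GRCm38.p6) and exon overlaps from GENCODE M21. Members and lists were chosen with earlier results of these data known. The text names all members and, from each related list, up to 3 higher and 2 lower called genes with the smallest p, except some that are not reported here. Ratio pairs and motifs were chosen after the values were seen.

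Alternatives were other pseudocounts (0.1 and 0.5), filters (none, and 0.5 FPKM), 4 scalings, array weights, no variance trend, a replicate block and leaving out each sample. Other denominators for the macrophage marker ratios were added after the values were seen. Exons of Ctsd and Glb1 overlap another gene on the same strand, and those of Ctsa, Ctsb, Ctsz, Grn, Hexa, Lamp1, Npc1 and Ppt1 on the opposite strand, so reads there are uncertain.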

Additional observations from a re-analysis of the deposited data

How the results depend on the processing

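As deposited, 16 of the 37 lysosomal genes were higher and 8 lower. Median-of-ratios scaling gave 8 higher and 11 lower and equal FPKM sums 28 higher and 4 lower, while quantile normalization gave 17 and 9. Over all tested genes, as deposited 5356 were higher and 1711 lower. These counts were 2776 and 3222 after median-of-ratios scaling, 2744 and 3138 after quantile normalization, and 8440 and 797 with equal FPKM sums, so 75.8% of calls were higher as deposited and 46.3%, 46.7% and 91.4% under these scalings. The median log2 fold change of the lysosomal genes moved to -0.012 after median-of-ratios scaling, 0.19 after quantile normalization and 0.52 with equal FPKM sums, beside -0.012, -0.032 and 0.45 for all tested genes. The cause was not tested.

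Among the 37 genes the sign changed with equal FPKM sums for Naglu at 0.10, Psap at 0.27, Ppt1 at 0.019 and Mcoln1 at 0.11. It changed after median-of-ratios scaling for Man2b1 at -0.012, Tpp1 at -0.24, Laptm4a at -0.0034, and for Ctsa, Ctsb, Ctsz, Gaa, Npc1, Lipa, Lamp1 and Lamp2, of which Tpp1 was called. After quantile normalization it changed for Gaa, Arsa, Npc1 and Lamp1. Each other alternative changed it for 0 to 4 of the 37, all with no call. Among other named genes it changed for Tmem175 at 0.035 and Neu1 at 0.25 with equal FPKM sums, for Vps18 at -0.058 and Neu1 after quantile normalization, and for Neu1 with array weights and without stone sample 3. Ratios to macrophage markers without Csf1r and Mertk, added after the values were seen, were 1.64 times those of controls for Ctss, 1.22 for Cd68, 0.702 for Laptm5, 0.664 for Ctsc and 0.808 for Ctsk. Leaving out 1 sample gave 13 to 18 higher and 7 or 8 lower lysosomal genes, and 4173 to 5269 higher and 1355 to 1686 lower over all genes. Other pseudocounts and filters changed 1 lysosomal call, that of Scarb2, which became higher at both pseudocounts.

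The labels do not say that a replicate number pairs samples. Deviations of same-numbered samples from their group means correlated at 0.01, -0.22 and -0.04. Deviations from a mean of 3 samples constrain one another, so these values cannot decide whether samples were paired. With the replicate block 17 lysosomal genes were higher and 7 lower, Naglu being lost (-0.17, adjusted p = 0.0924) and Scarb2 gained (0.30, adjusted p = 0.0335), and over all genes 4861 were higher and 1517 lower. Of the other named genes, the block lost the Vps18 call.

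Depth is unknown, so low genes such as Ctsk, Gla, Arsa and Cd68 carry a counting error that cannot be given.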
